A study of Mus musculus with 39 samples.

Results

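Carbonic anhydrases are enzymes that turn carbon dioxide and water into bicarbonate and a proton, and back. Expression of 7 family members (Car2, Car3, Car4, Car5b, Car8, Car12 and Car14) was read in mouse testis from the probe sets annotated with that single gene symbol, taking the one with the highest mean over all arrays where a gene had several. This left 6 of the 7 members, among 22180 genes measured in this way. The single probe set of Car14 was also annotated to Aph1a, the gene next to it on chromosome 3, so no Car14 value is given. Car2 was chosen by its low log2 intensity in the srKO testes at 2 months, so that comparison is described for every gene and tested for none. All 6 measured members had at least 1 of the 8 group means above the filter value of 4.62 (log2) and were among the 19007 genes tested.

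Testes of mice aged 2 weeks and 2 months were hybridised to 39 Affymetrix arrays. All 3 mutant lines carried floxed Prkar1a (Prkar1afl/fl). The Cre transgene was Sf1:Cre in prKO, Amh:Cre in the line called srKO and Cyp11a1:Cre in lrKO, and wild-type littermates (WT) served as controls. At 2 weeks there were 8 WT, 4 prKO, 4 srKO and 4 lrKO arrays, and at 2 months 8 WT, 3 prKO, 4 srKO and 4 lrKO arrays. The numbers of mice in the study's design text match these numbers of arrays. Prkar1a encodes a regulatory subunit that restrains the cAMP-dependent protein kinase. The Sf1 promoter is active in somatic precursors of the gonad and in the adrenal cortex, the Amh promoter in Sertoli cells and the Cyp11a1 promoter in steroid-producing cells, so germ cells were not the targeted cells in any line and whole-testis RNA mixes recombined with other cells.

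Prkar1a was lower than in WT in prKO at 2 weeks (log2 difference −0.78 ± 0.07 SE, adjusted p = 4.52e-07) and at 2 months (−0.30 ± 0.09, adjusted p = 0.00782), and in srKO at 2 weeks (−0.48 ± 0.07, adjusted p = 0.00219). In lrKO it differed by 0.05 ± 0.07 at 2 weeks and 0.04 ± 0.08 at 2 months, neither of which passed the test. At 2 months 1 of the 3 prKO arrays (8.66, 8.63 and 8.36) lay below all WT arrays. WT replicates 1 to 4 read 8.61 to 8.81 at that age, and WT replicates 5 to 8 read at least 8.95. At 2 weeks these sets read 8.84 to 8.95 and 8.99 to 9.14. The size of the Prkar1a differences at 2 months thus depends on the WT replicates used. Prkar1a was not tested against either set alone. The 4 arrays with the srKO label at 2 months were 0.24 ± 0.08 above WT in Prkar1a, and 3 of them lay above all WT arrays. As in lrKO, the deletion was thus not seen as a lower Prkar1a value, and they are called arrays labelled srKO here. Whole-testis RNA mixes the targeted cells with others, so these values do not settle whether the label is right. Whether the probe set lies in the deleted exons is not given in the sources used here. Array medians lay between 5.81 and 6.02 over all groups. Within groups, the least alike pair of arrays correlated at 0.949 in prKO at 2 months and at 0.951 in WT at 2 weeks. Some arrays stood apart in marker genes of other tissues: prKO replicate 1 at 2 months in epididymal and adipocyte genes, prKO replicate 3 at 2 months and WT replicate 2 at 2 weeks in adipocyte genes, and WT replicate 4 at 2 weeks in genes of smooth muscle (list mean 10.31, against 8.33 to 8.80 in the other WT arrays of that age) and skeletal muscle (5.91 against 5.40 to 5.59). Differences of members that rest on them are given with and without them, whereas correlations between members are given with all arrays only. Without WT replicate 4 the calls in prKO at 2 weeks were the same 2 members, Car2 (0.56, adjusted p = 0.048) and Car12 (0.46, adjusted p = 0.00147). Adrenal glands are named in the extraction protocol, but testis in every other label. The mean of 9 spermatid genes lay between 9.28 and 11.30 in every array at 2 months. The mean of 7 meiotic genes ranged from 8.55 to 10.17 in WT at 2 weeks and from 8.57 to 9.25 in prKO. At that age it was 8.37 to 9.82 in srKO and 9.75 to 10.16 in lrKO, so prKO and lrKO did not overlap. The part of this spread in the differences at 2 weeks was not tested.

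The family divides by the place where each enzyme works. Car2 and Car3 are cytosolic, Car5b is mitochondrial, Car4 is anchored to the outer face of the plasma membrane by a lipid, and Car12 and Car14 span the membrane with the catalytic domain outside. Car8 lacks catalytic activity and is known as a binding partner of an inositol trisphosphate receptor. In the male tract, bicarbonate activates the soluble adenylyl cyclase Adcy10 of spermatids and sperm, which makes cAMP independently of hormone receptors, and the epididymis acidifies its lumen with proton pumps fed by carbonic anhydrase. Car2, Car3 and Car1 are neighbours on chromosome 3.

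Promoter sequence was held by the RefSeq table (GRCm38.p6) for 4 of the 7 members, Car4, Car5b, Car12 and Car14. The 250 bases before the start are printed for Car12 and Car5b, the members whose prKO arrays at 2 months all lay above all WT arrays. Capitals mark the one match to the sequence TGACATCA, and the Car5b stretch has none. Car12 lies at chr9:66713436-66713685 on the plus strand, and Car5b at chrX:164028011-164028260 on the minus strand.
Car12: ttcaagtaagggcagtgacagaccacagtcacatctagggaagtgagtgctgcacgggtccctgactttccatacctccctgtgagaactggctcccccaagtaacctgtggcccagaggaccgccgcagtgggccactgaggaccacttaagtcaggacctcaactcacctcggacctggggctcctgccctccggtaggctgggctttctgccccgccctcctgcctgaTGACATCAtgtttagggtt
Car5b: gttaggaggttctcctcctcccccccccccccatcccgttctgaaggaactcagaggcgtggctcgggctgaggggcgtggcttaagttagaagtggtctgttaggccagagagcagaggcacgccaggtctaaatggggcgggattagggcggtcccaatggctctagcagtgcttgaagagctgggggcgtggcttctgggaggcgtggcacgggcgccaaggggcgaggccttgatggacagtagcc

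The cAMP response element TGACGTCA, its shorter form TGACG (which the full element contains) and the TATA-type sequence TATAA were searched on both strands. None of the 3 was found in these stretches of Car4, Car5b, Car12 or Car14. They occurred in 1.55%, 17.8% and 22.8% of 32851 promoter stretches of the same length. The variant TGACATCA was chosen after the Car12 sequence had been read. It occurred once in Car12, starting 19 bases before the start (position −19), not in the other 3 members, and in 2.93% of all promoters. The Car12 stretch was 59.2% G and C and the Car5b stretch 63.6%.

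Car2, the cytosolic enzyme of high activity, was the member with the largest difference between the ages in WT. In WT at 2 weeks its lowest, median and highest log2 intensities were 5.11, 5.38 and 6.13, and in WT at 2 months they were 10.05, 10.56 and 10.72. The 8 arrays at 2 months all lay above the 8 at 2 weeks. Car2 rose by 4.98 ± 0.26 on the log2 scale (31.5-fold, 95% interval 4.46 to 5.49, limma adjusted p = 1.89e-19). This was rank 212 among the rises of all genes. The 8 WT arrays at 2 months also stand in the comparison on which Car2 was chosen, so this rise is not independent of that choice. Of the 6 members, 3 were called between the ages, against 81.6% of all genes tested (26.7% higher and 55% lower). The median gene was 0.24 lower at 2 months, or 0.13 lower after quantile normalization was repeated, and the age changes are to be read against that shift. In whole-testis RNA, a change in the number of cells of a type and a change in RNA per cell cannot be told apart.

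At 2 months the order of the Car2 group means was lrKO (10.56 ± 0.12 SD, n = 4), WT (10.48 ± 0.27, n = 8), prKO (8.93 ± 1.18, n = 3) and the arrays labelled srKO (7.07 ± 1.14, n = 4). At 2 weeks the means were 6.12 ± 0.36 in prKO (n = 4), 5.51 ± 0.35 in WT (n = 8), 5.47 ± 0.31 in lrKO (n = 4) and 5.20 ± 0.28 in srKO (n = 4). The range of each group overlapped the range of the next group in this order of 8.

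In the arrays labelled srKO Car2 read, at 2 months, 8.22, 7.53, 5.52 and 7.03, against 10.05 to 10.72 in WT. All 4 lay below all 8 WT arrays, and replicate 3 lay within the range of WT at 2 weeks. The difference was −3.41 ± 0.38 (95% interval −4.20 to −2.62), 10.6-fold lower, and was the fall of rank 2 among 19007 genes. It is the value on which the gene was chosen.

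Car2 in prKO at 2 months read 10.23, 7.94 and 8.61. Replicate 1 lay inside the WT range and replicates 2 and 3 below it. Car2 fell by 1.56 ± 0.42 on the log2 scale (2.94-fold, 95% interval −2.43 to −0.68, adjusted p = 0.00436). In this comparison 4 of the 6 members were called, against 48.4% of all genes tested (26% higher and 22.4% lower). The same 8 WT arrays stand in the comparison on which Car2 was chosen. Without replicate 2 the difference was −1.06 and was not called (adjusted p = 0.0594), and without replicate 1 it was −2.21 (adjusted p = 0.000132). Without replicate 3 it was −1.40 (adjusted p = 0.0318).

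In lrKO at 2 months Car2 read 10.65, 10.59, 10.61 and 10.37, all within the WT range. The difference was 0.07 (95% interval −0.71 to 0.86, adjusted p = 0.981). None of the 6 members was called in lrKO against WT at 2 months, also none at an unadjusted p under 0.05, where 0.184% of all genes were called. In prKO against lrKO, a comparison without WT arrays, Car2 was lower by −1.63 ± 0.47 (adjusted p = 0.00779), all 3 prKO arrays lay below all lrKO arrays, and 4 of the 6 members were called against 45.6% of all genes. Without prKO replicate 2 that difference was −1.14 and was not called (adjusted p = 0.0675).

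**Figure D1:**
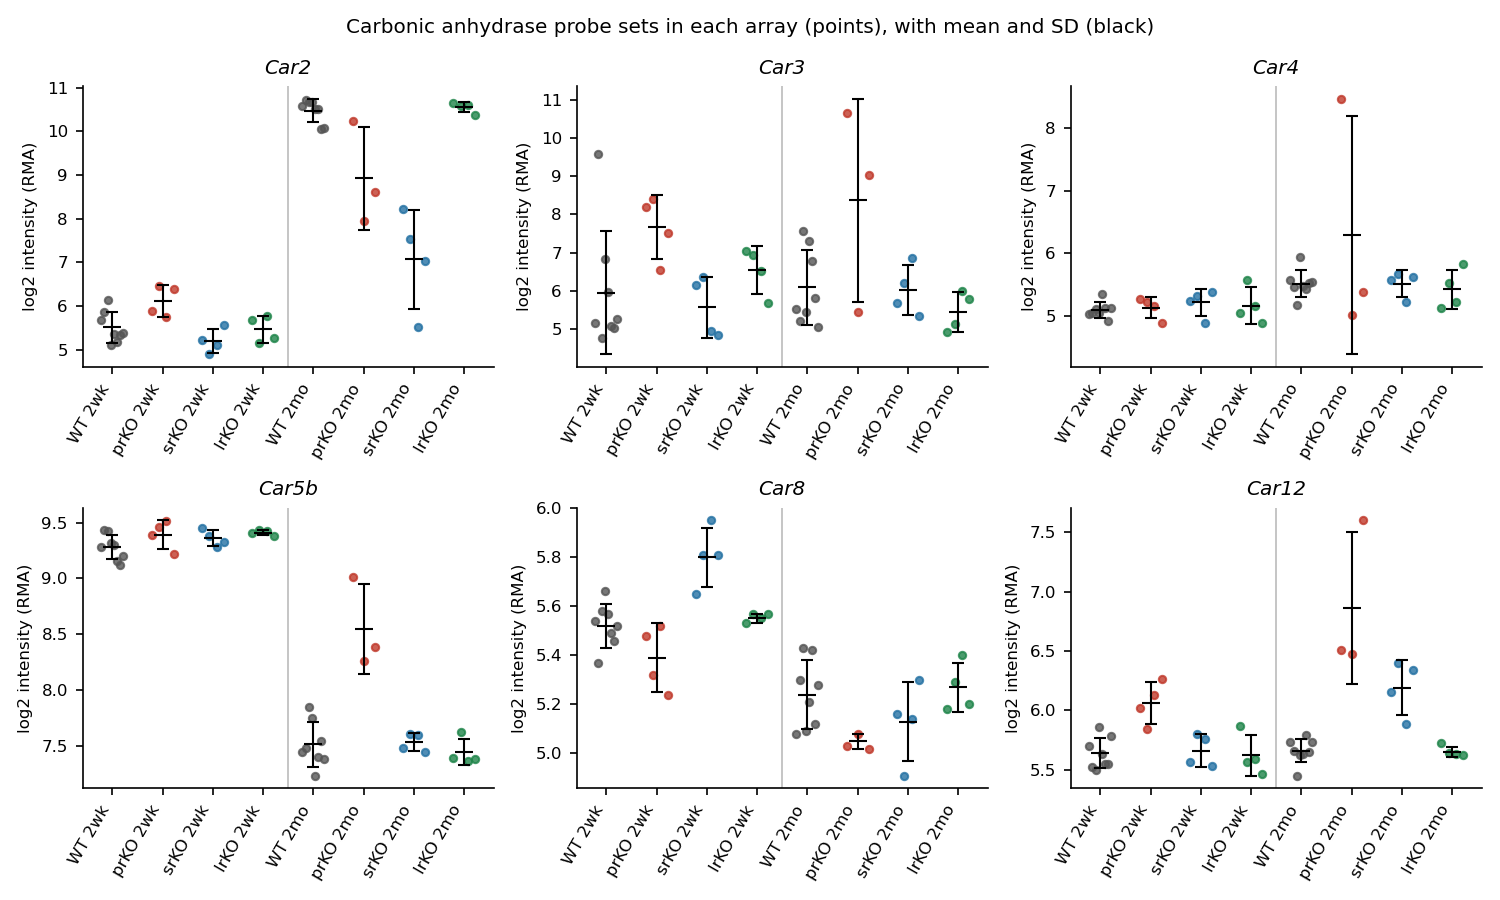
Log2 intensity (RMA) of the 6 measured carbonic anhydrases, one panel a gene with its own axis range, in each array (points) of the 8 groups, with the group mean and SD in black. Car2 was near 10.5 in WT and lrKO at 2 months and lower in prKO and in the arrays labelled srKO, Car5b was above 9 in all groups at 2 weeks, and single prKO arrays set the highest Car3, Car4 and Car12 values.

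At 2 weeks Car2 read 5.88, 6.46, 5.74 and 6.40 in prKO, and 2 of these 4 arrays lay above all WT arrays. The difference was 0.61 ± 0.19 (1.53-fold, adjusted p = 0.0424). At this age 2 of the 6 members were called in prKO against WT, and 10.5% of all genes were. The Car2 call was lost without any 1 of 7 of the 12 arrays (WT replicates 5, 6, 7 and 8, prKO replicates 1, 2 and 4), with differences between 0.50 and 0.74 and adjusted p between 0.0127 and 0.147 over all 12, and also with WT reduced to replicates 1 to 4 (0.43, adjusted p = 0.381), with only prKO and WT in the fit (adjusted p = 0.0832) and with all 8 groups in it (adjusted p = 0.205). In srKO at 2 weeks Car2 read 5.22, 4.90, 5.10 and 5.56, overlapping WT (−0.31 ± 0.19, 95% interval −0.70 to 0.08, adjusted p = 0.458). Car2 in prKO was above srKO by 0.92 ± 0.22 (adjusted p = 0.00909), with no overlap, and above lrKO by 0.65 ± 0.22 (adjusted p = 0.0462). With all 8 groups in the fit neither was called (adjusted p = 0.0917 and 0.216). The call against lrKO was lost without prKO replicate 1, 2 or 4 or lrKO replicate 1, 2 or 4 (adjusted p 0.0303 to 0.13 over the 8 arrays left out). The members called were 3 of 6 against srKO and 2 of 6 against lrKO, beside 11.8% and 16.4% of all genes. Leydig cell markers also differed at this age: 4 of the 6 tested (8 listed) were higher in prKO than in WT, with a median of 1.75 against −0.01 over all genes. The log2 of their summed intensity was 13.27 to 13.78 in prKO, 10.87 to 12.03 in WT, 11.21 to 11.68 in srKO and 10.56 to 11.41 in lrKO. Their part in the Car2 difference was not tested.

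The difference between prKO and WT thus had opposite signs at the 2 ages, and the change between ages was tested directly. For Car2 it was −2.17 ± 0.47 (95% interval −3.12 to −1.22, adjusted p = 0.00046). Its WT arrays at 2 months are among those on which Car2 was chosen. With Car5b and Car12, 3 of the 6 members were called in this test, beside 28.2% of all genes. In lrKO the change was 0.11 (95% interval −0.78 to 1.01), and none of the 6 members was called (none at an unadjusted p under 0.05, and 0.1% of all genes called).

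At 2 months spermatid markers were, like mean Car2, lower in prKO and in the arrays labelled srKO than in WT. The mean log2 intensity of 9 of 10 listed spermatid genes was 11.04 to 11.26 in WT, 11.19 to 11.30 in lrKO, 10.28, 9.83 and 10.59 in prKO replicates 1 to 3, and 10.35, 10.20, 9.28 and 9.97 in the arrays labelled srKO. The array with the lowest Car2 had the lowest spermatid mean, but it is one of those on which Car2 was chosen. Within prKO the order differed: replicate 3 had the highest spermatid mean and replicate 1 the highest Car2. Replicate 1 of prKO had a spermatid mean below WT and a Car2 value within WT. In prKO at 2 months 8 of the 9 genes were lower and 1 was higher, with a median of −1.07 against 0.02 over all genes. The log2 of their summed intensity was 14.64 to 14.87 in WT, 14.75 to 14.90 in lrKO, 13.40 to 14.22 in prKO and 13.06 to 13.94 in the arrays labelled srKO. Of 7 meiotic genes tested 5 were lower in prKO at 2 months and none higher, and of 8 spermatogonial genes 3 were higher and 3 lower. At 2 weeks, when the list mean was 5.80 to 6.03 in all groups, none of the 9 was called in prKO (1 at an unadjusted p under 0.05). The protamine gene Prm1, which packs sperm DNA, read 9.95, 9.55 and 10.68 in prKO at 2 months and 10.35, 9.79, 7.69 and 9.20 in the arrays labelled srKO, against 11.27 to 11.81 in WT. The part of the spermatid level in the Car2 differences was not tested. Car2 is also a known enzyme of red blood cells, but only 2 of 11 listed red blood cell genes could be tested, and neither was called in prKO at either age, also at an unadjusted p under 0.05.

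The genes whose values, taken as the difference from the WT mean of the same age, followed Car2 most closely over the 39 arrays were Bri3bp (Pearson r = 0.94), Prkcd, Lrrc57, Herpud2 (each 0.93) and Prm1 (0.92). Prkcd encodes a protein kinase C isoform. These coefficients describe arrays that share groups and ages, and carry no test. They include the arrays labelled srKO at 2 months, on whose Car2 values the gene was chosen. Without those 4 arrays the coefficients of these same genes lay between 0.71 (Prm1) and 0.81 (Bri3bp and Herpud2) over 35 arrays. The genes were still those ranked on all 39 arrays, and the ranking was not repeated without the 4. Bri3bp read 8.55 to 9.19 in WT at 2 months and 8.57, 7.85 and 7.81 in prKO.

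Car3, a cytosolic enzyme of low activity that is abundant in fat and skeletal muscle, varied more between WT arrays than any other member at both ages. In WT at 2 weeks it ranged from 4.77 to 9.58 with a median of 5.20, and replicate 2 alone lay above 6.82. The prKO arrays at 2 weeks read 8.20, 8.41, 6.55 and 7.52. The difference of 1.72 ± 0.67 (95% interval 0.31 to 3.12) did not pass the test (adjusted p = 0.11), and without WT replicate 2 it was 2.23 and passed (adjusted p = 0.00166). All 4 prKO arrays lay above all srKO arrays (6.15, 6.37, 4.95 and 4.83), but that difference of 2.09 ± 0.78 was not called (adjusted p = 0.0863). That main fit includes the WT arrays in its estimate of the spread. With only prKO and srKO in the fit the difference was called (SE 0.45, adjusted p = 0.0161), and also with the replicate block (adjusted p = 0.0474).

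Car3 in prKO at 2 months read 10.65, 5.45 and 9.02, against 5.06 to 7.57 in WT. Replicates 1 and 3 were above all WT arrays and replicate 2 was among them. Car3 was higher by 2.29 ± 0.74 (4.88-fold, adjusted p = 0.015). The call rested on those arrays: the difference was 1.15 without replicate 1 (adjusted p = 0.199), 1.97 without replicate 3 (adjusted p = 0.0859) and 3.75 without replicate 2 (adjusted p = 5.53e-05). It was also lost with array weights (2.06, adjusted p = 0.0708) and with WT reduced to replicates 5 to 8 (2.13, adjusted p = 0.0569). Against lrKO (4.91, 5.13, 5.99 and 5.78) the difference was 2.92 ± 0.83 (adjusted p = 0.00725), and 1.78 without prKO replicate 1 (adjusted p = 0.0695). A second, dimmer Car3 probe set read 7.59, 4.17 and 5.25 in the same prKO arrays and 3.99 to 4.68 in WT at 2 months. In the arrays labelled srKO, Car3 lay between 5.34 and 6.85, within the WT range.

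Adipocyte markers moved with Car3. Of 8 listed adipocyte genes 7 were tested, and their mean log2 intensity was 8.17, 5.53 and 6.90 in prKO replicates 1 to 3 at 2 months against 5.22 to 5.69 in WT, with 6 of the 7 called higher and none lower. As the log2 of the summed intensity, the list spanned 8.55 to 11.54 in prKO, 8.20 to 8.64 in WT, 8.24 to 8.36 in lrKO and 8.34 to 8.47 in the arrays labelled srKO. At 2 weeks WT replicate 2 had the highest mean of all arrays of that age, 6.29. Fabp4, the fatty acid binding protein of fat cells, read 10.25, 4.74 and 8.48 in prKO at 2 months and 8.05 in WT replicate 2 at 2 weeks, and it was the gene most like Car3 over the 39 arrays (r = 0.95). The hormone gene Retn (0.82) and Cyp2e1 (0.78) followed. Of 6 skeletal muscle genes tested, 1 was called higher in prKO at 2 months, with a list median of −0.01, and 2 at 2 weeks. The part of fat tissue in the Car3 differences was not tested.

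Car4, the lipid-anchored enzyme, lay between 4.89 and 5.95 in every array but one. Its prKO values at 2 months were 8.46, 5.02 and 5.38, so replicate 1 was above all WT arrays (5.18 to 5.95) and replicate 2 below them. The difference of 0.76 ± 0.43 was not called (95% interval −0.14 to 1.67, adjusted p = 0.156). It was −0.32 without replicate 1 (adjusted p = 0.14), and 1.40 without replicate 2, when it passed (adjusted p = 0.013). The sign of the Car4 value in prKO at 2 months was therefore set by replicate 1. Car4 differed between the ages in WT by 0.42 ± 0.25 (adjusted p = 0.115), and 7 of 8 arrays at 2 months lay above all arrays at 2 weeks. It passed when the fit held the WT arrays alone (adjusted p = 0.000155). In lrKO at 2 months the difference was −0.09 (95% interval −0.91 to 0.73).

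Some epididymal transcripts were high in the same prKO array. The mean of 5 of 8 listed epididymal genes was 7.76 in replicate 1 and 4.83 and 4.85 in replicates 2 and 3, against 4.75 to 5.39 in WT. The other 3 listed genes were below the filter value (Rnase10 and Cst11) or had no probe set of their own (Crisp1). The log2 of the summed intensity was 12.46 in replicate 1 and at most 8.06 in the other arrays at 2 months. Adam7, a gene of the epididymal epithelium, read 11.70, 4.25 and 4.47 in these 3 arrays. It was also above 5 in 7 other arrays, with the highest value 7.08 in prKO replicate 3 at 2 weeks, where Car4 read 5.16. Rnase9 and the defensin genes Defb22 and Defb43 were the genes most like Car4 (each r = 0.93), and without prKO replicate 1 at 2 months these coefficients were 0.48, 0.44 and 0.40 over 38 arrays. None of the 5 epididymal genes was called in prKO at 2 months (1 at an unadjusted p under 0.05). Of these genes, 3 had a positive difference from WT and 2 a negative one, with a median of 0.18. Rnase9 read 11.09, 3.73 and 3.62 in prKO replicates 1 to 3, but Lcn8 read 4.49, 4.98 and 4.77, against 4.64 to 5.21 in WT. The part of epididymal tissue in the Car4 value was not tested.

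**Figure D2:**
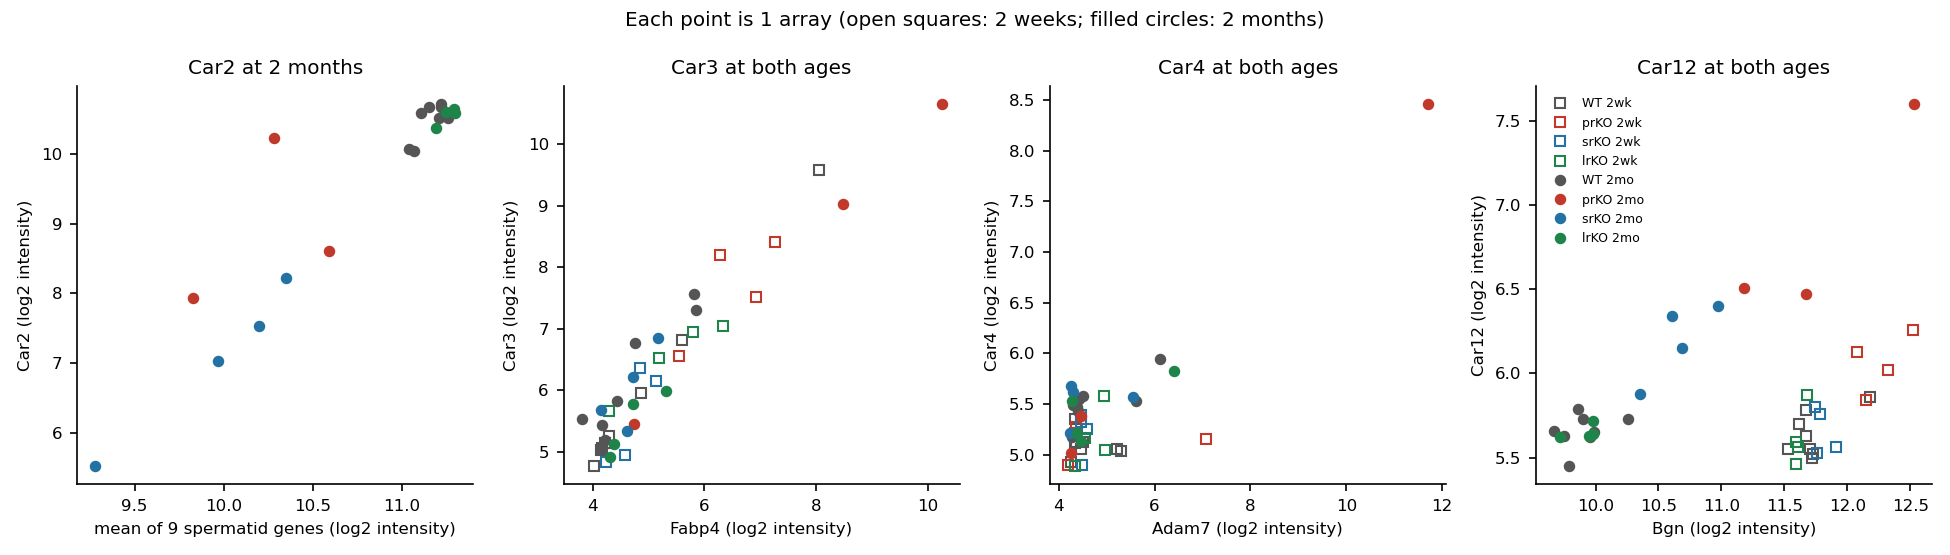
Each point is 1 array (open squares 2 weeks, filled circles 2 months, colours for genotype), with log2 intensities on both axes: Car2 against the mean of 9 spermatid genes at 2 months, Car3 against Fabp4, Car4 against Adam7 and Car12 against Bgn. The Car4 panel has a single array apart from the rest (prKO replicate 1 at 2 months, Car4 8.46 and Adam7 11.70), while Car3 and Fabp4 are spread over several arrays of both ages.

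Car5b, the mitochondrial enzyme that supplies bicarbonate to the carboxylases of that compartment, went down with age. It ranged from 9.12 to 9.43 in WT at 2 weeks and from 7.24 to 7.85 in WT at 2 months, with no overlap. Car5b fell by 1.76 ± 0.08 on the log2 scale (3.39-fold, adjusted p = 5.59e-21), rank 515 among the falls. At 2 weeks the means of the 4 genotypes lay between 9.28 and 9.41, their ranges overlapped, and no comparison was called.

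Car5b in prKO at 2 months read 9.01, 8.26 and 8.39, between the 2 WT ages. All 3 arrays lay above all WT arrays of their age, and Car5b was higher by 1.03 ± 0.13 (2.05-fold, 95% interval 0.75 to 1.31, adjusted p = 3.58e-06). Without replicate 1 it was 0.81 (adjusted p = 2.13e-05). Against lrKO (7.40, 7.63, 7.37 and 7.39) it was 1.10 ± 0.15 (adjusted p = 7.79e-06). The change of the prKO difference between ages was 0.92 ± 0.15 (adjusted p = 9.22e-06). The arrays labelled srKO read 7.49, 7.61, 7.60 and 7.45, within the WT range, so at 2 months the prKO mean (8.55 ± 0.40, n = 3) was the one that stood outside the other 3 genotypes (7.45 to 7.54).

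The genes most like Car5b over 39 arrays were Slc35f2, Rnase2a (each r = 0.90) and Fhl1 (0.89), and 0.78, 0.82 and 0.79 without prKO replicate 1 at 2 months. Slc35f2, a solute carrier, read 10.45, 9.02 and 8.91 in prKO at 2 months and 7.71 to 8.40 in WT. Sertoli cell genes, 12 of 12 tested, fell with age in WT for 10 of them (none rose, median −1.54), and in prKO at 2 months 7 were higher and 2 lower (median 0.45). The log2 of the summed intensity of the list was 12.39 to 12.70 in WT, 12.72 to 13.37 in prKO, 12.70 to 12.94 in the arrays labelled srKO and 12.40 to 12.49 in lrKO at 2 months. In the arrays labelled srKO the Sertoli median was 0.14 and the Car5b difference 0.02 ± 0.12. The part of the Sertoli cell level in the Car5b values was not tested.

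Car12, a transmembrane enzyme of epithelia that faces the outside of the cell, was higher in prKO at both ages. At 2 weeks it read 6.02, 5.84, 6.13 and 6.26 in prKO and 5.50 to 5.86 in WT, and 3 of 4 prKO arrays lay above all WT arrays. The difference was 0.43 ± 0.09 (1.34-fold, adjusted p = 0.00438). With WT reduced to replicates 1 to 4 it missed the threshold (0.42, adjusted p = 0.0509). Car12 in prKO was above srKO by 0.40 ± 0.11 (adjusted p = 0.0178), with no overlap, and above lrKO by 0.45 ± 0.11 (adjusted p = 0.00821). Leaving out prKO replicate 4 ended the call against srKO (0.34, adjusted p = 0.0682), as did leaving out srKO replicate 1 (0.37, adjusted p = 0.0538) and replicate 4 of the same line (0.36, adjusted p = 0.0537), and a fit of all 8 groups (adjusted p = 0.0702). In srKO and lrKO at 2 weeks Car12 differed from WT by 0.02 (95% interval −0.17 to 0.22) and −0.02 (95% interval −0.21 to 0.17).

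At 2 months Car12 read 6.51, 6.47 and 7.60 in prKO and 5.45 to 5.79 in WT. The arrays did not overlap, replicate 3 was the highest, and the difference was 1.20 ± 0.17 (2.30-fold, 95% interval 0.85 to 1.55, adjusted p = 7.88e-06). Without replicate 3 it was 0.83 (adjusted p = 8.49e-06), and without replicate 1 it was 1.38. The excess over WT was larger at 2 months than at 2 weeks by 0.77 ± 0.19 (adjusted p = 0.00198), or by 0.40 without replicate 3 (adjusted p = 0.038). The arrays labelled srKO read 6.15, 6.40, 5.88 and 6.34, all above all WT arrays, at 0.53 ± 0.15 with no test. In lrKO at 2 months Car12 read 5.72, 5.64, 5.63 and 5.62 (−0.01, 95% interval −0.32 to 0.31), and prKO was above lrKO by 1.21 ± 0.19 (adjusted p = 3.2e-05). In WT it did not differ between the ages beyond its spread (0.02, 95% interval −0.19 to 0.23).

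The genes most like Car12 over the 39 arrays were the matrix proteoglycan gene Bgn and the collagen gene Col1a2 (each r = 0.94) and the receptor gene Lrp1 (0.93). Bgn read 11.18, 11.67 and 12.53 in prKO at 2 months, 10.69, 10.97, 10.35 and 10.61 in the arrays labelled srKO, and 9.67 to 10.26 in WT. Replicate 3 of prKO had the highest value of both genes. Endothelial markers moved the same way, with a mean of 6.70, 6.97 and 7.52 in prKO at 2 months, 6.42 to 6.82 in the arrays labelled srKO and 5.98 to 6.22 in WT. As the log2 of the summed intensity, the list spanned 10.18 to 11.34 in prKO, 9.86 to 10.29 in the arrays labelled srKO, 9.36 to 9.61 in WT and 9.32 to 9.48 in lrKO. In prKO 9 of 9 endothelial genes were called higher at 2 months and 5 of 9 at 2 weeks, and 8 of 8 macrophage genes at 2 months and 4 of 8 at 2 weeks. Of 6 genes of smooth muscle and peritubular cells, 4 were higher and 1 lower at 2 months. Of all genes, 48.4% were called in prKO at 2 months and 10.5% at 2 weeks. The part of these cells in the Car12 differences was not tested.

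Car8, the member without catalytic activity, differed by at most 0.41 (log2) in the comparisons tested. It ranged from 5.37 to 5.66 in WT at 2 weeks and from 5.08 to 5.43 in WT at 2 months, and it fell by 0.28 ± 0.06 on the log2 scale (adjusted p = 6.2e-05), with 6 of 8 arrays below all arrays at 2 weeks. In srKO at 2 weeks it read 5.65, 5.81, 5.95 and 5.81, and 3 of 4 lay above all WT arrays. The difference of 0.28 ± 0.07 (1.21-fold) passed the threshold (adjusted p = 0.0496) and was the single call among the 6 members, beside 0.873% of all genes. It was lost without WT replicate 1, 2, 3, 6, 7 or 8 or any 1 srKO array, with differences of 0.23 to 0.33 and adjusted p of 0.0308 to 0.214 over the 12 arrays left out. In lrKO at 2 weeks none of the 6 members was called (none at an unadjusted p under 0.05), beside 0.1% of all genes.

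Car8 in prKO at 2 weeks read 5.48, 5.32, 5.52 and 5.24, and it was below srKO by −0.41 ± 0.08 without overlap (adjusted p = 0.00152). At 2 months it read 5.03, 5.08 and 5.02 in prKO, with a difference from WT of −0.20 ± 0.09 that was not called (adjusted p = 0.0856). It was called after each array was centred on its median (−0.24, adjusted p = 0.0397) and with all 8 groups in the fit (adjusted p = 0.0456). The arrays labelled srKO gave −0.11 ± 0.08. The genes most like Car8 were Brpf1 (r = 0.73), Cert1 and Pgm2l1 (each 0.72).

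**Figure D3:**
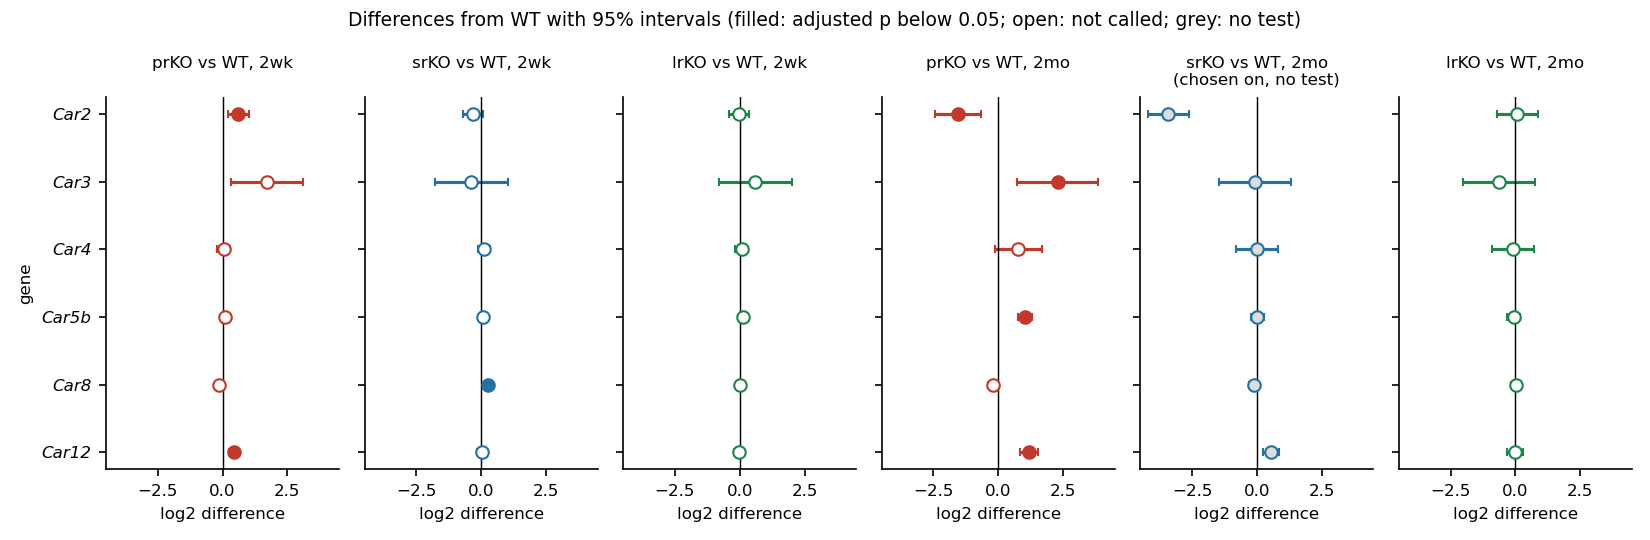
Log2 difference from WT (points) with its 95% interval (bars) for the 6 carbonic anhydrases in the 3 lines at both ages. Filled points passed an adjusted p of 0.05, open points did not, and grey points mark the comparison on which Car2 was chosen, which has no test: 4 points are filled in prKO at 2 months, 2 in prKO and 1 in srKO at 2 weeks, and none in lrKO.

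The members did not move as one group. Over the 39 arrays, as differences from the WT mean of the same age, Car2 and Car12 correlated at r = −0.46, Car4 and Car5b at 0.62, Car5b and Car12 at 0.59 and Car3 and Car5b at 0.59. These describe arrays that share groups, and prKO replicate 1 at 2 months is among the highest values of Car3, Car4 and Car5b. The coefficient with Car2 includes the arrays labelled srKO at 2 months, on whose Car2 values the gene was chosen. It was not computed without them.

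Of 9 other carbonic anhydrases listed, 7 were tested. Car5a shared its probe set with another gene, and Car1 was below the filter value in every group. In prKO at 2 weeks 2 were higher and none lower, beside 10.5% of all genes called. These were Car7 (0.69 ± 0.18, adjusted p = 0.0189), a cytosolic enzyme known from neurons, and Car13 (0.44 ± 0.12, adjusted p = 0.0183), a cytosolic enzyme whose gene lies near Car2. In prKO at 2 months 2 were higher and 2 lower, near the 48.4% of all genes called, with a list median of 0.14 against 0.02. Car13 was higher (0.93 ± 0.16, adjusted p = 7.24e-05), with all 3 arrays above all WT arrays, and so was Car11 (0.50 ± 0.12, adjusted p = 0.00164), a family member without catalytic activity. Car7 was lower (−0.56 ± 0.12, adjusted p = 0.000611), the opposite sign to 2 weeks, and the change between ages was −1.25 ± 0.23 (adjusted p = 7.7e-05). In WT 1 rose and 4 fell with age (81.6% of all genes were called), among them Car11 (−0.75 ± 0.10) and Car9 (−0.74 ± 0.07), the transmembrane enzyme induced by hypoxia. By limma none of the 7 was called in srKO at 2 weeks (0 at an unadjusted p under 0.05) or in lrKO (2 at an unadjusted p under 0.05 at 2 weeks and 0 at 2 months).

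Of 18 genes of bicarbonate transport and sensing, 16 were tested. With age, 4 rose and 9 fell in WT, where 81.6% of all genes were called, a share near that of the list. The largest rises were Adcy10, the bicarbonate-activated cyclase (5.20 ± 0.14, adjusted p = 1.05e-27), Slc26a8, an anion transporter of male germ cells (2.96 ± 0.16), and the chloride and bicarbonate channel Cftr (1.83 ± 0.12). Like Car2, these 3 were higher in all 8 WT arrays at 2 months than in any at 2 weeks. At 2 months in prKO, 6 were higher and 3 lower, with a median of 0.10 against 0.02 over all genes, of which 48.4% were called. Adcy10 fell by 0.91 ± 0.08 on the log2 scale (adjusted p = 2.69e-08) and Cftr by 0.79 ± 0.11 (adjusted p = 7.79e-06), whereas the anion exchanger Slc4a2 was higher by 0.72 ± 0.10 (adjusted p = 4.83e-06), each without overlap. Adcy10 averaged 9.93 ± 0.21 in prKO (n = 3), 10.39 ± 0.09 in the arrays labelled srKO (n = 4) and 10.84 ± 0.06 in WT (n = 8), so its lowest group was prKO. Car2 was lowest in the arrays labelled srKO, but it was chosen for that, so the orders of the groups are not compared. By limma none of the 16 was called in prKO or srKO at 2 weeks (4 and 2 at an unadjusted p under 0.05) or in lrKO at either age (2 at 2 weeks and 0 at 2 months).

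Of 15 genes of proton and lactate transport, 13 were tested. In WT 5 rose and 5 fell with age, again near the 81.6% of all genes called, led by the sperm sodium-proton exchanger Slc9c1 (5.02 ± 0.34, adjusted p = 6.98e-16), and by falls of the lactate transporters Slc16a3 (−1.51 ± 0.11) and Slc16a1 (−1.41 ± 0.05). At 2 weeks 2 were higher in prKO, beside 10.5% of all genes called. Slc9a2, a sodium-proton exchanger, rose by 1.35 ± 0.26 (adjusted p = 0.00146), with all 4 arrays above all WT arrays, and the proton pump subunit Atp6v0a1 by 0.36 ± 0.07 (adjusted p = 0.00246). At 2 months in prKO, 4 were higher and 3 lower, beside 48.4% of all genes called. Atp6v0a1 was higher by 1.28 ± 0.11 (adjusted p = 4.93e-08), Slc9a2 by 0.66 ± 0.14 (adjusted p = 0.000876), and Slc9c1 was lower (−0.73 ± 0.14, adjusted p = 0.000292). By limma none was called in srKO at 2 weeks (3 at an unadjusted p under 0.05) or in lrKO at either age (1 at 2 weeks and 0 at 2 months).

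**Figure D4:**
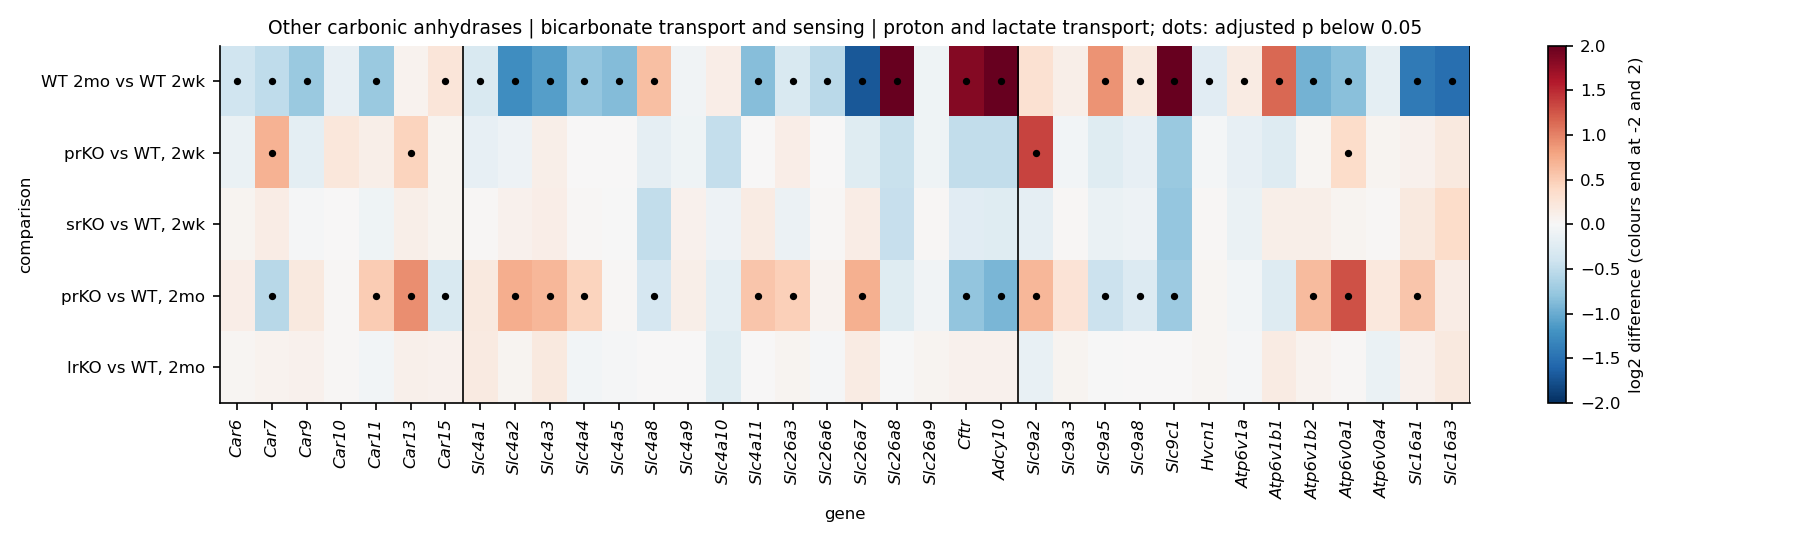
Log2 difference (colour, cut at −2 and 2) of the tested genes of the other carbonic anhydrases, of bicarbonate transport and sensing, and of proton and lactate transport (columns) in 5 comparisons (rows), with dots for an adjusted p below 0.05. The row of WT ages has calls in both directions in each list, prKO at 2 months has higher and lower genes in each list, and the rows of srKO at 2 weeks and lrKO at 2 months have no dots.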

How the data were processed

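Gene expression was measured in whole testis on Affymetrix arrays, 1 array a sample, and groups were taken from the sample titles. The deposited table holds a log2 intensity for each probe set, normalized by the authors with RMA per the submitters' processing notes. The RMA version and the genome build behind the array were not given in the sources used here. All 39 arrays entered the fits, and their number limits the precision.

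Of 41345 probe sets, 23521 had 1 gene symbol. Genes with a group mean above the 25th percentile of all values (4.62) in at least 1 group were tested (19007). Log2 values were compared with limma 3.58.1 in R 4.3.3 (lmFit and eBayes), 4 genotypes an age, all 8 groups for age contrasts, and p-values were adjusted (Benjamini-Hochberg) over these genes, with 0.05 as threshold. SE and 95% intervals come from the same fit. The scripts were tested on simulated data.

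Members and gene lists were chosen with earlier results of these data known. Named genes were all members, Prkar1a, up to 3 called genes of each list and comparison with the largest difference, and the genes most like each member by Pearson r (5 for Car2, 3 for the others). Genes given beside them as examples of a marker list were chosen after their values were seen. Alternatives were other filters, probe set averages, repeated quantile normalization, median centring, array weights, trended and robust variances, other sample sets, a replicate block, subsets of WT arrays and leaving out each array. Same-numbered arrays did not deviate together (4 of 23 pairs with r over 0.1, range −0.62 to 0.34), so numbers were not treated as pairs.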

Additional observations from a re-analysis of the deposited data

Results flagged for a closer look

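3 array values lay apart from the rest of their group, by a Dixon gap test at the 95% level. Car3 in WT replicate 2 at 2 weeks was 9.58, with the nearest array at 6.82. Car5b in lrKO replicate 2 at 2 months was 7.63, with the nearest at 7.40, and Car12 in lrKO replicate 1 at 2 months was 5.72, with the nearest at 5.64. These were 3 of 42 combinations of a member and a group examined, and chance flags about 5% of groups. The prKO group at 2 months, with 3 arrays, was too small and was not examined, so its high Car4 value in replicate 1 (8.46) was not judged in this way.

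The lines differed from each other in tested comparisons. At 2 weeks prKO differed from srKO for Car2 (0.92, adjusted p = 0.00909), Car8 (−0.41, adjusted p = 0.00152) and Car12 (0.40, adjusted p = 0.0178), and from lrKO for Car2 (0.65, adjusted p = 0.0462) and Car12 (0.45, adjusted p = 0.00821). At 2 months prKO differed from lrKO for Car2 (−1.63, adjusted p = 0.00779), Car3 (2.92, adjusted p = 0.00725), Car5b (1.10, adjusted p = 7.79e-06) and Car12 (1.21, adjusted p = 3.2e-05). The difference between prKO and WT changed from 2 weeks to 2 months for Car2 (−2.17, adjusted p = 0.00046), Car5b (0.92, adjusted p = 9.22e-06) and Car12 (0.77, adjusted p = 0.00198). All values are log2 differences. The WT arrays at 2 months behind the change of Car2 also stand in the comparison on which Car2 was chosen.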

How the results depend on the processing

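Of 22 calls of single members, 12 were kept under every left-out array and every alternative in which the member was tested. Car8 was not tested with the stricter filter, so its calls were not tried there. Of the 22, 7 were lost under at least 1 other alternative, 8 without at least 1 array, and 0 changed sign. In prKO against WT at 2 weeks, 2 members were called. The number was 1 with only the groups compared or all 8 groups in the fit, 0 with the replicate block, 0 against WT replicates 1 to 4 alone and 4 against WT replicates 5 to 8 alone, and 1 to 3 over the left-out arrays. In srKO against WT at 2 weeks the 1 call became 0 with no filter, a stricter filter (which drops Car8), repeated quantile normalization, trended and robust variances, only the groups compared, the replicate block, or either WT subset, and 0 to 1 over the left-out arrays. In prKO against srKO at 2 weeks 3 calls became 1 with all 8 groups in the fit, 4 with the replicate block, and 2 to 3 over the left-out arrays. In prKO against lrKO at 2 weeks 2 calls became 1 with no filter, all 8 groups or the replicate block, and 1 to 2 over the left-out arrays. In the other comparisons the number of members called was within 1.5 times the main number, also with the replicate block. Left-out arrays gave 3 to 4 for prKO against WT or lrKO at 2 months and for the change in prKO between ages. Under the block the Car12 difference of prKO at 2 weeks was 0.42 (adjusted p = 0.0992) and that of Car2 was 0.43 (adjusted p = 0.471); 1 array correlated best with its own number. A block with the number shared by both ages, added after the data were seen, left 3 members called between the WT ages. Median centring moved the share of higher calls from 56.3% to 44.4% for the change in prKO between ages. With 3 prKO arrays at 2 months, Car2, Car3 and Car4 rest on single arrays.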
